A study of Mus musculus with 27 samples.

Results

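Embryonic mouse hearts labelled Tbx5+/- were compared directly with hearts labelled Nkx2-5+/-, across all genes on the array and without wild type in the contrast. The comparison used 9 of the 27 arrays of the series, namely 5 labelled Tbx5+/- and 4 labelled Nkx2-5+/-, chosen by the genotype in the title alone. All hearts were dissected at stage E11.5 from a C57Bl/6/BLKSW mix strain, and 1 array was hybridised with biotin-labelled total RNA per sample. Each group carries a heterozygous deletion of 1 transcription factor gene and no deletion of Brg1 in its label. Which part of Tbx5 or Nkx2-5 is deleted is not given in the labels, nor is it stated whether a heart came from 1 embryo or a pool, and the p-values below treat arrays as independent embryos. The 6 wild-type arrays are given only as a level beside the 2 groups. Values are log2 signals of 19935 genes, and every difference is Tbx5+/- minus Nkx2-5+/- on the log2 scale, so that a positive one is higher in hearts labelled Tbx5+/-. Genes said below to rise or fall do so in this difference, not against wild type. A gene was called at a Benjamini-Hochberg adjusted p under 0.05 in limma. The heart muscle markers Tnnt2 and Myl7 had signals of at least 12.18 on each of the 9 arrays.

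Tbx5 is a T-box transcription factor and Nkx2-5 a homeodomain transcription factor, and both are needed for the heart tube to form chambers. The proteins bind each other and act together on promoters of working chamber muscle, such as those of the natriuretic peptide gene Nppa and the gap junction gene Gja5. Heterozygous mutations of either human gene cause septal and conduction defects of the heart.

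Among the 9 arrays, 1 stood apart before any gene was compared. Nkx2-5+/- replicate 3 had an Nkx2-5 signal of 9.40. The 6 other arrays whose labels hold an Nkx2-5 deletion ran between 8.48 and 9.24, and it lay above all of them and inside the 8.99 to 10.01 of the 20 arrays without one. Its Smarca4 signal, which reports Brg1, was 9.57, below the 9.89 to 10.23 of the 14 other arrays without a Brg1 deletion in their label and inside the 9.16 to 10.01 of the 12 arrays with one. The 10.01 was Tbx5+/-;Brg1+/- replicate 3, an array of neither group that enters the shared estimate of spread and lay at the level of arrays without a Brg1 deletion. Nkx2-5+/- replicate 3 thus lay outside the other arrays of its label in both genes. Its Nkx2-5 signal was still below that of every Tbx5+/- array. The deleted part of Nkx2-5 is not stated, so its label was not settled by these signals. Every direction below holds for arrays as labelled, and counts and the leading genes are given with and without Nkx2-5+/- replicate 3. By sex-linked genes, 3 arrays were female-like and 2 male-like in Tbx5+/-, and 3 were female-like and 1 male-like in Nkx2-5+/-.

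Nkx2-5 itself separated the groups. Its signal (probe set 10449292, chromosome 17) was 9.96, 10.01, 9.74, 9.99 and 9.79 on the arrays labelled Tbx5+/-, and 8.48, 8.48, 9.40 and 8.63 on those labelled Nkx2-5+/-. The groups did not overlap, and without replicate 3 the nearest arrays were further apart still. The difference was 1.15 (SE 0.18, adjusted p = 0.000748), which is 2.22-fold higher in Tbx5+/-. Wild-type arrays ran between 9.17 and 9.96 with a median of 9.66.

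Tbx5 was also higher in the hearts labelled Tbx5+/-. Its signal (probe set 10525030, chromosome 5) was 8.80, 8.88, 8.51, 8.90 and 8.89 in Tbx5+/- and 7.92, 8.01, 8.54 and 7.82 in Nkx2-5+/-. The groups overlapped only through Nkx2-5+/- replicate 3 and Tbx5+/- replicate 3, and the difference was 0.72 (SE 0.13, adjusted p = 0.0018) with all arrays and 0.88 without Nkx2-5+/- replicate 3 (adjusted p = 2.16e-05). With the mean of red cell genes as a covariate, described below, it was 0.56 and did not pass (adjusted p = 0.0669). Because the deleted part of Tbx5 is not stated, the label Tbx5+/- was not checked by its probe set. The wild-type arrays lay between 8.4 and 8.96, so 3 of the 4 arrays labelled Nkx2-5+/- fell below all of them in Tbx5 signal and no array labelled Tbx5+/- did. Smarca4 (probe set 10583697, chromosome 9) differed by 0.17 (SE 0.11, adjusted p = 0.356) and did not pass.

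**Figure D1:**
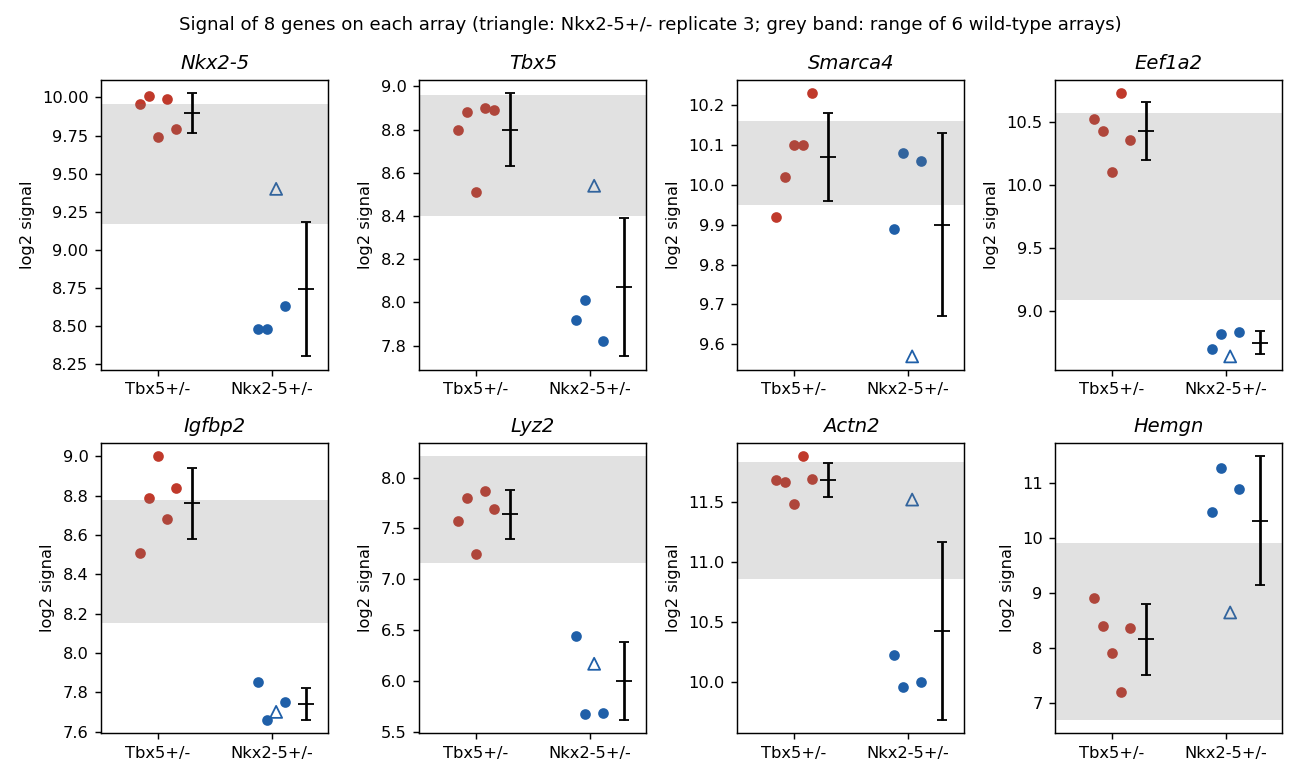
Log2 signal of 8 genes on each array, with Tbx5+/- (red) left of Nkx2-5+/- (blue), a triangle for Nkx2-5+/- replicate 3, bars for the group mean ± SD and a grey band for the range of the 6 wild-type arrays. For Eef1a2, Igfbp2 and Lyz2 the triangle lies with the other arrays labelled Nkx2-5+/-, while for Actn2 and Hemgn it lies near the Tbx5+/- arrays.

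A large share of the genes differed. Of the 19935 genes, 2225 were called (11.2%), with 1538 higher in Tbx5+/- (7.72%) and 687 lower (3.45%). Most differences were small. The median absolute size among called genes was 0.52, 839 genes differed by at least 1.5-fold, and 154 by at least 2-fold, of which 67 were higher and 87 lower. Over all genes the median difference was 0.0139. In 1655 genes (8.3%) the 9 arrays did not overlap between groups, with all Tbx5+/- arrays above in 944 (4.74%) and below in 711 (3.57%). With the 9 arrays alone in the fit, 985 genes were called (4.94%), 614 higher (3.08%) and 371 lower (1.86%). The calls of Sfrp2, Kcnq1, Icam2, Prrx2, Acta2, Smad1, Hey1, Insr, Sema3c, Smarcd3, Pbrm1, Dusp1, Med13l, Bak1, Ergic1, Nppa, Tnnt2, Gata4 and Ppargc1a, all described below, ended in that fit.

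The number of calls rested on single arrays, in both groups. Without Nkx2-5+/- replicate 3 it was 4550 (22.8%), with 3170 higher (15.9%) and 1380 lower (6.92%). It was 1445 without Nkx2-5+/- replicate 1, 682 without replicate 2 and 1023 without replicate 4. Leaving out Tbx5+/- replicate 4 gave 1328 calls, and leaving out any other Tbx5+/- array gave 1534 to 2079. A set of 523 genes (2.62%) was called with all 27 arrays in the fit, with the 9 arrays alone and without each of the 9 arrays in turn, of which 414 were higher in Tbx5+/- (2.08%) and 109 lower (0.547%). These are called stable below.

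A shift in the red cell genes ran alongside these counts. The mean signal of 28 genes of haem synthesis and red cells was 9.80, 9.15, 9.12, 8.49 and 8.86 on the Tbx5+/- arrays, and 10.74, 10.81, 8.89 and 10.63 on the Nkx2-5+/- arrays. Wild-type arrays ran between 8.47 and 9.87. Of the arrays labelled Nkx2-5+/-, 3 thus lay above every other array of both groups and of wild type, and replicate 3 did not. With this mean as a covariate, 91 genes were higher in Tbx5+/- (0.456%) and 18 lower (0.0903%), and 107 of the 109 were among the 2225. Of the 111 named genes with a call, 26 kept it with the covariate, and the calls of all other named genes ended. The genes that kept it were Nkx2-5, Eef1a2, Lyz1, Lyz2, Aldh1b1, Lrrc10, Fam189a2, Myoz2, Casq2, Pcp4l1, Mlf1, Hopx, Smpx, Fhl2, Kcne1, Cox6a2, Echs1, Hadh, Acadl, Ldhb, Msln and Igfbp2, which were higher in Tbx5+/-, and Flvcr1, Kif14, Cit and Taok3, which were lower. The mean moved with the group labels in all arrays but replicate 3, and its part in the differences was not tested apart from genotype. In whole hearts, fewer cells of a type and less RNA per cell cannot be told apart either.

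**Figure D2:**
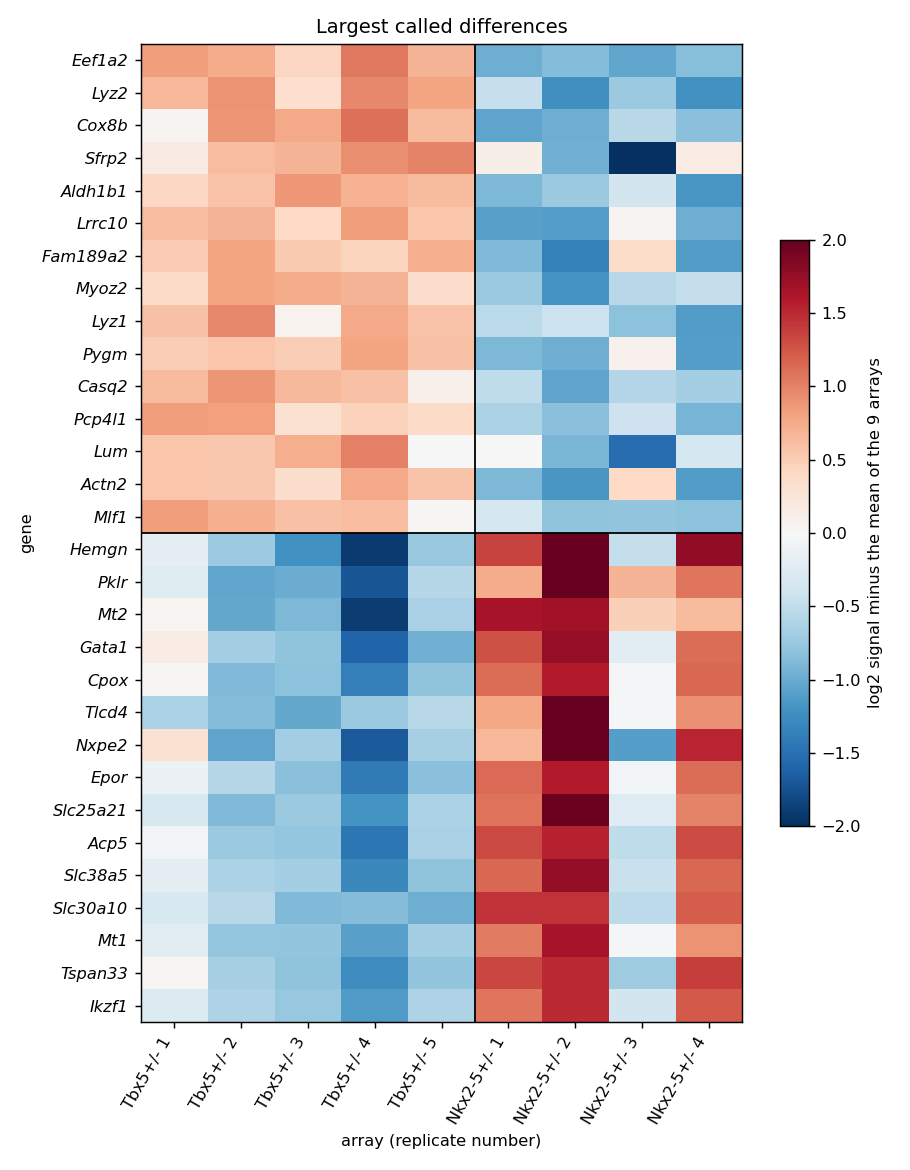
Log2 signal minus the mean of the 9 arrays for the 15 called and named genes with the largest rise in Tbx5+/- (top) and the 15 with the largest fall (bottom), 1 column per array with Tbx5+/- on the left. In most of the lower block, Nkx2-5+/- replicate 3 has values near those of the Tbx5+/- columns.

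Genes of the working chamber muscle were higher in Tbx5+/- hearts. Of 24 measured genes of the chamber list, 19 rose (79.2%, against 7.72% of all genes) and none fell by limma or at an unadjusted p under 0.05. The median difference was 0.81, against 0.0139 over all genes. The list mean was 9.69 to 9.83 in Tbx5+/-, inside the wild-type range of 9.28 to 9.88. It was 8.65 to 8.94 on Nkx2-5+/- replicates 1, 2 and 4 and 9.73 on replicate 3. Without Nkx2-5+/- replicate 3, 23 rose (against 15.9% of all genes) with a median of 1.04. On the 9 arrays alone 14 rose, the lowest count when any 1 array was left out was also 14, and with the red cell mean as a covariate it was 4 (median 0.54). The promoters of 2 of these genes are shown, both picked with their matches known. Nppa is the textbook shared target of both factors, and Lrrc10 had the largest difference of the list. Each line is the 250 bases before the transcription start in RefSeq (GRCm38.p6, plus strand), at chr4:148000472-148000721 for Nppa and chr10:117045091-117045340 for Lrrc10. Capitals mark matches, on either strand, to the T-box core AGGTGT and the Nkx element TNAAGTG.
Nppa: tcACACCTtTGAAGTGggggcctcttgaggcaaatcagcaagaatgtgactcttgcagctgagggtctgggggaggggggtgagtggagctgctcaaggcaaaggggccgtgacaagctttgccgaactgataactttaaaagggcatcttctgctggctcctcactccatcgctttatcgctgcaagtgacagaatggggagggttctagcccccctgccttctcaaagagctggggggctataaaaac
Lrrc10: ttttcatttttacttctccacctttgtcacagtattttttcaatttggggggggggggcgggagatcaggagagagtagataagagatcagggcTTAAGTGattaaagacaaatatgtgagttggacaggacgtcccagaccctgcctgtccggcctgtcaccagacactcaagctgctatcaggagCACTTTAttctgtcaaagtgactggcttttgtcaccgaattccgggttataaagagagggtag

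The Nppa window holds 1 T-box core, 248 to 243 bases before the start, and 1 Nkx element, 241 to 235 bases before it, which do not overlap. The Lrrc10 window holds 2 Nkx elements, 156 to 150 and 63 to 57 bases before the start, and no T-box core. Both genes were chosen for display after their matches were seen, and a match is a string of letters, not a site. In windows of 300 bases, reaching 50 bases past the start, the T-box core stood in 13.7% of all 32851 promoters and the Nkx element in 11.5%, with both in 1.66%. Among promoters of genes higher in Tbx5+/- the shares were 11.0%, 9.3% and 0.912%, and among those of lower genes 10.9%, 10.2% and 1.0%. Over all measured genes they were 12.4%, 10.4% and 1.43%, each above the share in the higher and in the lower genes, and the differences were not tested.

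Lrrc10, a leucine-rich repeat protein of heart muscle, had signals of 7.83, 7.89, 7.61, 8.04 and 7.76 in Tbx5+/- and 6.13, 6.11, 7.27 and 6.24 in Nkx2-5+/-. The groups did not overlap, replicate 3 stood between the groups, and the difference was 1.39 (SE 0.20, adjusted p = 0.000339). Nppa, which encodes atrial natriuretic peptide, had 12.92, 12.75, 12.26, 12.77 and 12.43 in Tbx5+/- against 12.09, 11.54, 12.62 and 11.15 in Nkx2-5+/-. Its groups overlapped through replicate 3. The Nppa difference of 0.78 (SE 0.23, adjusted p = 0.03) was 1.04 without that array (adjusted p = 0.00124), and the call ended without Nkx2-5+/- replicate 2 or 4 or Tbx5+/- replicate 1, 2 or 4.

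Gja5, the connexin 40 gene and a known Tbx5 target, behaved differently from the rest of the chamber list. It had 9.07, 9.09, 9.74, 8.95 and 9.0 in Tbx5+/- and 9.52, 9.16, 10.11 and 8.94 in Nkx2-5+/-, with 9.56 to 9.96 in wild type. Tbx5+/- replicate 3 was the single Tbx5+/- array inside the wild-type range, and the other 4 lay below it, as did 3 of the 4 arrays labelled Nkx2-5+/-. The difference was -0.26 (SE 0.18, adjusted p = 0.419), and it was -0.41 without Tbx5+/- replicate 3 (adjusted p = 0.163) and -0.04 without Nkx2-5+/- replicate 3 (adjusted p = 0.906). It did not pass in any of these.

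Other chamber genes rose by less than Lrrc10. Fhl2, a LIM domain protein of muscle, differed by 1.18 (SE 0.19, adjusted p = 0.000775) with signals of 9.63 to 9.74 in Tbx5+/- and 8.06 to 9.28 in Nkx2-5+/-. Smpx, a small protein of striated muscle, differed by 0.89 (SE 0.14, adjusted p = 0.000775) with 11.10 to 11.34 in Tbx5+/- and 9.99 to 10.78 in Nkx2-5+/-. Both were stable, non-overlapping and still called with the red cell covariate.

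Sarcomere genes rose as a block. Of 31 measured genes, 26 were higher in Tbx5+/- (83.9%, against 7.72% of all genes) and none was lower by limma or at an unadjusted p under 0.05, with a median of 0.64. The count was 27 (median 0.84) without Nkx2-5+/- replicate 3, where 15.9% of all genes rose, and 13 on the 9 arrays alone. Leaving out Nkx2-5+/- replicate 1, 2 or 4 left 17, 11 or 13, and the red cell covariate left 1 (median 0.37). The list mean was 10.81, 10.90, 10.83, 10.89 and 10.76 in Tbx5+/- and 10, 9.89, 10.81 and 9.96 in Nkx2-5+/-, so replicate 3 was at the level of the Tbx5+/- arrays for the list as a whole. Wild-type arrays ran between 10.42 and 10.96, a range that held every Tbx5+/- array. Nkx2-5+/- replicates 1, 2 and 4 lay below it.

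Individual sarcomere genes split in how replicate 3 behaved. Myoz2, a Z-disc protein that tethers calcineurin, had 8.88, 9.29, 9.25, 9.19 and 8.86 in Tbx5+/- and 7.76, 7.33, 7.95 and 8.02 in Nkx2-5+/-. All 4 arrays labelled Nkx2-5+/- were low, and the difference was 1.33 (SE 0.23, adjusted p = 0.000958). Actn2, the sarcomeric alpha-actinin that cross-links actin at the Z-disc, had 11.68, 11.67, 11.48, 11.88 and 11.69 in Tbx5+/- and 10.23, 9.96, 11.52 and 10 in Nkx2-5+/-. Replicate 3 was inside the Tbx5+/- range here, and the difference was 1.25 (SE 0.26, adjusted p = 0.00329) with it and 1.62 without it (adjusted p = 1.26e-05). Tnnt1, the slow skeletal troponin T, differed by 1.10 (SE 0.22, adjusted p = 0.00268). Des, which encodes the intermediate filament desmin, differed by 1.06 (adjusted p = 0.00134), and Lmod2, an actin filament nucleator, by 0.97 (adjusted p = 0.00268). All of these were stable. The cardiac troponin T gene Tnnt2 rose by 0.65 (adjusted p = 0.0114, lost without Nkx2-5+/- replicate 2 or 4), while the atrial light chain gene Myl7 had a difference of 0.24 (adjusted p = 0.512).

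Calcium handling was mixed. Of 21 measured genes, 7 rose (33.3%, against 7.72% of all genes) and none fell (none at an unadjusted p under 0.05), with a median of 0.26. Without Nkx2-5+/- replicate 3 the count was 15 (against 15.9% of all genes), and without replicate 1, 2 or 4 it was 4, 3 or 2. It was 3 on the 9 arrays alone and 1 with the red cell covariate (median 0.13). Casq2, the cardiac calsequestrin that stores calcium in the sarcoplasmic reticulum, had 8.35, 8.6, 8.37, 8.31 and 7.82 in Tbx5+/- and 7.22, 6.67, 7.14 and 7.04 in Nkx2-5+/-. The groups did not overlap, all 4 arrays labelled Nkx2-5+/- were low, and the difference was 1.27 (SE 0.22, adjusted p = 0.00116). Pln, which encodes phospholamban, the inhibitor of the calcium pump, differed by 1.07 (SE 0.21, adjusted p = 0.00254) and was stable. The pump gene Atp2a2 and the release channel gene Ryr2 did not pass, with differences of 0.10 (adjusted p = 0.705) and 0.22 (adjusted p = 0.608). Without Nkx2-5+/- replicate 3, which had the highest Atp2a2 and Ryr2 signals of the 9 arrays (12.77 and 10.26), both were called, at 0.32 (adjusted p = 0.0164) and 0.61 (adjusted p = 0.0044).

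In the list of conduction and ion channel genes, 7 of 25 rose (28%, against 7.72% of all genes) and none fell (1 fell at an unadjusted p under 0.05), with a median of 0.08. On the 9 arrays alone 2 rose, and with the red cell covariate 1 rose. The count was 11 without Nkx2-5+/- replicate 3 (against 15.9% of all genes), 3, 2 and 1 without replicates 1, 2 and 4, and 3 without Tbx5+/- replicate 2, 4 or 5. Kcne1, an accessory subunit of the slow delayed rectifier, had 7.34, 7.26, 6.82, 7.10 and 7.17 in Tbx5+/- and 5.91, 5.73, 6.33 and 6.15 in Nkx2-5+/-. The groups did not overlap and the difference was 1.11 (SE 0.19, adjusted p = 0.00116). Its channel partner Kcnq1 differed by 0.42 (adjusted p = 0.012, lost without Nkx2-5+/- replicate 2 or 4), and replicate 3 (7.22) was within the Tbx5+/- range of 7.17 to 7.39. The pacemaker channel gene Hcn4 had a difference of -0.30 (adjusted p = 0.344).

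Energy metabolism genes followed the muscle genes. In the respiratory chain, 23 of 35 measured genes rose (65.7%, against 7.72% of all genes) and none fell (none at an unadjusted p under 0.05), with a median of 0.49 and every one of the 35 above 0. Leaving out Nkx2-5+/- replicate 3 gave 28, leaving out replicate 1, 2 or 4 gave 14, 11 or 12, and it was 14 on the 9 arrays alone and 1 with the red cell covariate (median 0.36). In fatty acid oxidation and its regulators, 19 of 28 rose (67.9%) and none fell (1 fell at an unadjusted p under 0.05), with a median of 0.51. At least 14 rose whichever array was left out, 13 on the 9 arrays alone and 4 with the red cell covariate (median 0.38). In glycolysis and the hypoxia response, 15 of 28 rose (53.6%) and none fell (none at an unadjusted p under 0.05), with a median of 0.52. That count was 22 without Nkx2-5+/- replicate 3, 10 without replicate 1, 4 without replicate 2, 5 without replicate 4 and 10 without Tbx5+/- replicate 4. It was 5 on the 9 arrays alone and 1 with the red cell covariate (median 0.31). In each of these lists, in this order, the Tbx5+/- means (10.78 to 10.94, 8.91 to 9.04 and 9.79 to 9.90) were at wild-type level. Wild type ran at 10.51 to 10.94, 8.58 to 9.05 and 9.57 to 9.95. Nkx2-5+/- replicates 1, 2 and 4 lay below it, at 10.24 to 10.32, 8.25 to 8.42 and 9.09 to 9.31. Replicate 3 was at 10.60, 8.79 and 9.97, inside the wild-type range in the respiratory chain and fatty acid lists and just above it in the glycolysis list.

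The respiratory genes with the largest differences were the muscle isoforms of cytochrome c oxidase subunits. Cox6a2 had 10.04, 10.48, 10.24, 10.38 and 10.24 in Tbx5+/- and 9.24, 9.0, 9.34 and 9.12 in Nkx2-5+/-. The groups did not overlap, all 4 arrays labelled Nkx2-5+/- were low, and the difference was 1.10 (SE 0.18, adjusted p = 0.000775). Cox8b, another muscle isoform, differed by 1.54 (SE 0.36, adjusted p = 0.00718), and by 0.94 without a call under the red cell covariate (adjusted p = 0.231). Cox7a1 differed by 0.65 (SE 0.13, adjusted p = 0.00254). The ubiquitous complex I gene Ndufb5 differed by 0.52 (SE 0.11, adjusted p = 0.00338).

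Among genes of fatty acid breakdown, Echs1, the mitochondrial enoyl-CoA hydratase, had 9.40, 9.60, 9.54, 9.67 and 9.55 in Tbx5+/- and 8.71, 8.52, 9.21 and 8.38 in Nkx2-5+/-. The difference was 0.85 (SE 0.14, adjusted p = 0.000855) with no overlap. Acadl, the long-chain acyl-CoA dehydrogenase, differed by 0.86 (SE 0.15, adjusted p = 0.00116), and Hadh, the next enzyme after Echs1, by 0.79 (SE 0.14, adjusted p = 0.00114). Ppargc1a, a coactivator that drives mitochondrial genes, had 8.46, 7.96, 8.07, 8.18 and 8.01 in Tbx5+/- and 7.22, 6.84, 8.17 and 6.93 in Nkx2-5+/-. Its difference was 0.84 (SE 0.19, adjusted p = 0.00555), and replicate 3 lay inside the Tbx5+/- range.

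Among sugar-handling genes, Ldhb, the heart form of lactate dehydrogenase, differed by 1.20 (SE 0.20, adjusted p = 0.000835) and Eno3, the muscle enolase, by 1.09 (SE 0.20, adjusted p = 0.00134). Pygm, the muscle glycogen phosphorylase, differed by 1.30 (SE 0.24, adjusted p = 0.00156). These 3 were stable and did not overlap. The phosphofructokinase gene Pfkp, at 1.20 (SE 0.26, adjusted p = 0.00412), overlapped through replicate 3, whose signal of 10.39 stood among the 10.21 to 10.48 of Tbx5+/-, against 8.64 to 8.85 on the other 3 arrays.

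Among 35 measured cardiac transcription factors, 13 rose (37.1%, against 7.72% of all genes) and none fell (none at an unadjusted p under 0.05), with a median of 0.33. It was 5 on the 9 arrays alone and 1 with the red cell covariate (median 0.11). The count was 21 without Nkx2-5+/- replicate 3 (against 15.9% of all genes), and 8, 4 and 7 without replicates 1, 2 and 4. This list leaves out Nkx2-5 and Tbx5. Hopx, a homeodomain protein that does not bind DNA, had 8.51, 8.51, 8.38, 8.73 and 8.53 in Tbx5+/- and 7.25, 7.05, 8.15 and 7.05 in Nkx2-5+/-. The groups did not overlap, and the difference was 1.16 (SE 0.18, adjusted p = 0.000723). Hey2, a repressor of the compact ventricular wall and a Notch effector, had 9.07, 8.76, 8.81, 8.71 and 8.56 in Tbx5+/- and 7.73, 7.15, 8.62 and 7.57 in Nkx2-5+/-. It differed by 1.01 (SE 0.20, adjusted p = 0.00285), with replicate 3 just inside the Tbx5+/- range. Smyd1, a muscle methyltransferase, differed by 0.89 (SE 0.18, adjusted p = 0.00314), and the ventricular factor Hand2 by 0.53 (SE 0.12, adjusted p = 0.00747). Gata4 was near the threshold at 0.39 (adjusted p = 0.0488) and passed without Nkx2-5+/- replicate 3 but not when any other of the 9 arrays was left out. Tbx20 did not pass, at 0.20 (adjusted p = 0.585).

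Signalling lists had shares of higher genes nearer to the 7.72% of all genes. In Bmp and Tgf-beta signalling, 2 of 29 genes rose (6.9%) and none fell (1 fell at an unadjusted p under 0.05). When Nkx2-5+/- replicate 3 was left out, 11 rose and 1 fell, against 15.9% and 6.92% of all genes. Bmp7 was 0.69 higher (SE 0.14, adjusted p = 0.0036) and Smad1 0.43 higher (adjusted p = 0.014, lost without Nkx2-5+/- replicate 2). In Notch signalling 2 of 18 rose (11.1%), Hey2 and Hey1. The Hey1 call (0.39, adjusted p = 0.0416) held only without Nkx2-5+/- replicate 3 or Tbx5+/- replicate 4 among the 9 fits with 1 array left out. In the list of the outflow tract and second heart field, 3 of 27 rose and 1 fell, against 7.72% and 3.45% of all genes. The 3 include Hand2. The guidance ligand gene Sema3c rose by 0.56 (adjusted p = 0.0345) and the hedgehog receptor gene Ptch1 fell by 0.49 (adjusted p = 0.0195), and these calls were made in 2 and 5 of the 9 fits with 1 array left out.

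Igf signalling held 1 higher and 1 lower gene of 14, against 7.72% and 3.45% of all genes. The higher one was among the clearest of the comparison. Igfbp2, a binding protein that modulates insulin-like growth factors, had 8.51, 8.79, 9.0, 8.68 and 8.84 in Tbx5+/- and 7.85, 7.66, 7.70 and 7.75 in Nkx2-5+/-. All 4 arrays labelled Nkx2-5+/- lay close together and below the wild-type range of 8.15 to 8.78. The difference was 1.02 (SE 0.13, adjusted p = 0.000182), it was 1.01 without replicate 3, and it was 0.99 with the red cell covariate (adjusted p = 0.00421). The insulin receptor gene Insr fell by 0.49 (SE 0.12, adjusted p = 0.00819), without overlap between groups, though not on the 9 arrays alone (adjusted p = 0.0527). Among 25 genes of the BAF complex, the chromatin remodeller built on Brg1, 1 rose and 1 fell, against 7.72% and 3.45% of all genes. On the 9 arrays alone none was called by limma. Without Nkx2-5+/- replicate 3 there were 5 higher and 2 lower of the 25, near the 15.9% and 6.92% of all genes in that fit. Smarcd3 rose by 0.64 (adjusted p = 0.00565, and 0.0623 on the 9 arrays alone) and Pbrm1 fell by 0.41 (adjusted p = 0.0139, lost without Nkx2-5+/- replicate 4).

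Outside the lists, Eef1a2 had the largest rise of the called genes. It encodes the muscle and neuron form of translation elongation factor 1 alpha. The signals were 10.52, 10.43, 10.10, 10.73 and 10.36 in Tbx5+/- and 8.70, 8.82, 8.64 and 8.83 in Nkx2-5+/-. All 4 arrays labelled Nkx2-5+/- were below the lowest wild-type array (9.09), and the difference was 1.68 (SE 0.28, adjusted p = 0.000835). Aldh1b1, a mitochondrial aldehyde dehydrogenase, had 8.52, 8.68, 8.97, 8.80 and 8.75 in Tbx5+/- and 7.21, 7.36, 7.75 and 6.95 in Nkx2-5+/-. It differed by 1.43 (SE 0.24, adjusted p = 0.00104) with no overlap. Fam189a2, Pcp4l1 and Mlf1 differed by 1.34, 1.27 and 1.25 and were stable. Sfrp2, a secreted Wnt inhibitor, differed by 1.52 (adjusted p = 0.0285), but this rested on replicate 3, whose signal was 6.18 against 7.89 to 9.01 on the other Nkx2-5+/- arrays, and it was 0.91 without it (adjusted p = 0.11). That call also ended without Nkx2-5+/- replicate 2 or Tbx5+/- replicate 2, 3, 4 or 5.

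Red cell genes formed the largest falls. All 28 measured genes of haem synthesis and red cells were below 0, with a median of -1.14, and 12 of them were called lower by limma (42.9%, against 3.45% of all genes), with 22 at an unadjusted p under 0.05. On the 9 arrays alone 9 were called. Without Nkx2-5+/- replicate 3, 27 were called (against 6.92% of all genes) and the median was -1.61. Leaving out Tbx5+/- replicate 3 or 4 left 7 or 3 of these calls, and leaving out Nkx2-5+/- replicate 1, 2 or 4 left 6, 0 or 3 (16 were at an unadjusted p under 0.05 in the fit with 0 calls). The 5 measured genes of the globin list, which does not hold Hbb-bh2, had a median of -0.57 and no call by limma, with 4 at an unadjusted p under 0.05 and 4 called without replicate 3.

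Hemgn, a nuclear protein of blood precursors, had the largest fall of the called genes. Its signals were 8.92, 8.4, 7.91, 7.20 and 8.37 in Tbx5+/- and 10.47, 11.28, 8.65 and 10.89 in Nkx2-5+/-. The groups overlapped through replicate 3 and Tbx5+/- replicate 1. The difference was -2.16 (SE 0.63, adjusted p = 0.0257) with it and -2.72 without it, and the call ended without Nkx2-5+/- replicate 1, 2 or 4 or Tbx5+/- replicate 3 or 4. Epor, the erythropoietin receptor gene, had 8.43, 7.99, 7.72, 7.14 and 7.72 in Tbx5+/- and 9.68, 10.14, 8.50 and 9.67 in Nkx2-5+/-. It fell by 1.70 (SE 0.43, adjusted p = 0.0121) without overlap, and among the fits with 1 array left out the call ended without Nkx2-5+/- replicate 2. With the red cell covariate it was -0.46 (adjusted p = 0.157). The mean used as that covariate holds Epor itself, so this value is shaped by that construction and decides nothing about Epor.

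Gata1, the master transcription factor of red cells, fell by 1.76 (SE 0.47, adjusted p = 0.0156), and Cpox, an enzyme of haem synthesis, by 1.73 (SE 0.46, adjusted p = 0.0166). Both calls ended without Nkx2-5+/- replicate 2 or 4 or Tbx5+/- replicate 4. Pklr, the pyruvate kinase gene of liver and red cells, fell by 2.04 (SE 0.55, adjusted p = 0.0164), and this call ended without Nkx2-5+/- replicate 2 or Tbx5+/- replicate 4. Hbb-bh2, a beta-like globin gene, fell by 1.30 (SE 0.26, adjusted p = 0.00314) and was stable, though at -0.62 it was not called with the red cell covariate (adjusted p = 0.0597). Probe sets of near-identical genes can share targets, so the split between globin copies, between Mt1 and Mt2 and between Lyz1 and Lyz2 is uncertain. The metallothionein gene Mt1, which binds zinc and copper, fell by 1.6 (SE 0.35, adjusted p = 0.00443) and was stable, while Mt2 fell by 2.0 (adjusted p = 0.0187, lost without Nkx2-5+/- replicate 1 or 2 or Tbx5+/- replicate 4). Flvcr1, a haem exporter, fell by 1.26 (SE 0.24, adjusted p = 0.0024) and remained called with the red cell covariate, at -0.62 (adjusted p = 0.037).

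Some cell cycle genes fell. Of 38 measured genes, 5 fell and 1 rose, against 3.45% lower and 7.72% higher over all genes, with a median of -0.20. On the 9 arrays alone 3 fell, and with the red cell covariate none was called by limma. The 5 became 3, 0 and 1 without Nkx2-5+/- replicates 1, 2 and 4, between 2 and 3 without Tbx5+/- replicate 2, 3, 4 or 5, and 10 without Nkx2-5+/- replicate 3, where 6.92% of all genes fell (7 were at an unadjusted p under 0.05 in the fit with 0). Mki67, the proliferation antigen Ki-67, had 10.72, 10.22, 10.41, 9.84 and 10.43 in Tbx5+/- and 11.95, 12.22, 10.61 and 12.21 in Nkx2-5+/-. Replicate 3 lay inside the Tbx5+/- range, and the gene fell by 1.42 (SE 0.35, adjusted p = 0.011, lost without Nkx2-5+/- replicate 2 or 4). Mycn, a growth-promoting transcription factor of embryonic heart muscle, was the gene that rose, by 0.72 (SE 0.15, adjusted p = 0.00394). Without Nkx2-5+/- replicate 3, 4 genes of the list rose, against 15.9% of all genes. Outside the list, the cytokinesis genes Kif14 and Cit fell by 1.15 (adjusted p = 0.0026) and 1.10 (adjusted p = 0.0016), both stable, non-overlapping and called with the red cell covariate. The cell cycle list mean was 9.57, 10.01, 9.77 and 9.66 on Nkx2-5+/- replicates 1 to 4, against 9.50 to 9.60 in Tbx5+/-. Replicate 1, high in the red cell list mean, lay inside that range, and replicate 3, low in the red cell list mean, lay above it. Mki67 was high on replicates 1, 2 and 4, as the red cell list mean was. The part of the red cell list mean in these genes was not tested.

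The lysozyme genes of macrophages set the groups apart on every array. Lyz2 had 7.57, 7.80, 7.25, 7.87 and 7.69 in Tbx5+/- and 6.44, 5.68, 6.17 and 5.69 in Nkx2-5+/-, with 7.16 to 8.21 in wild type. It differed by 1.64 (SE 0.20, adjusted p = 0.000182), and Lyz1 by 1.32 (SE 0.18, adjusted p = 0.000182). Both are neighbours of Lrrc10 on chromosome 10, which was also higher in Tbx5+/-, and a part of their position was not tested. All 4 arrays labelled Nkx2-5+/- lay below the wild-type range in Lyz2. The rest of the leukocyte list did not move as far. In all, 7 of 26 genes rose (26.9%, against 7.72% of all genes) and none fell (none at an unadjusted p under 0.05), with a median of 0.30. Without Nkx2-5+/- replicate 3, 4 of the 26 rose, which is near the 15.9% of all genes that rose in that fit. The count was 2 without Nkx2-5+/- replicate 2 or Tbx5+/- replicate 2, 3 or 4. On the 9 arrays alone and with the red cell covariate the count was 2, and with the covariate these were Lyz1 and Lyz2. The list mean of Nkx2-5+/- replicate 3 was 5.50, below the 5.97 to 6.24 of the other 3 and the 6.13 to 6.46 of Tbx5+/-.

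In the epicardium list, 7 of 21 genes rose (33.3%, against 7.72% of all genes) and none fell (none at an unadjusted p under 0.05), with a median of 0.26. Leaving out Nkx2-5+/- replicate 2 or 4 left 2 or 3, and leaving out Tbx5+/- replicate 2, 3 or 4 left 4, 3 or 4. It was 4 on the 9 arrays alone and 1 with the red cell covariate. Msln, the surface protein mesothelin, had 6.93, 6.93, 6.73, 7.04 and 6.54 in Tbx5+/- and 6.29, 6.25, 5.32 and 5.94 in Nkx2-5+/-. It differed by 0.89 (SE 0.18, adjusted p = 0.00338), with the lowest value in replicate 3. Dpp4, a cell surface peptidase, differed by 0.74 (SE 0.17, adjusted p = 0.00533) and was stable.

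In the smooth muscle list, 5 of 15 genes rose (33.3%, against 7.72% of all genes) and none fell (none at an unadjusted p under 0.05). It was 2 on the 9 arrays alone and 0 by limma with the red cell covariate, and the count was 2 or 3 without Nkx2-5+/- replicate 1, 2 or 4 or Tbx5+/- replicate 1, 2 or 5. Cnn1, the calponin gene, which embryonic heart muscle also expresses, differed by 1.05 (SE 0.22, adjusted p = 0.00418). Acta2, which is likewise used by embryonic heart muscle, differed by 0.55 (adjusted p = 0.0179, lost without Nkx2-5+/- replicate 1, 2 or 4) with a signal of 13.27 in replicate 3, above the 12.81 to 13.10 of Tbx5+/-. In the megakaryocyte list, 2 of 13 genes fell (15.4%, against 3.45% of all genes), against 9 without Nkx2-5+/- replicate 3, 1 without Nkx2-5+/- replicate 2 or 4 or Tbx5+/- replicate 4, and none without Nkx2-5+/- replicate 1.

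Lists of other cell types held few calls or none, where 7.72% of all genes were higher and 3.45% lower. Without Nkx2-5+/- replicate 3 these shares of all genes were 15.9% and 6.92%. Icam2 was the only 1 of 28 endothelial genes to rise, by 0.40 (adjusted p = 0.045), and it was called in 2 of the 9 fits with 1 array left out. Of 26 cushion mesenchyme genes 2 rose (4 without Nkx2-5+/- replicate 3), and this 7.69% is near the share over all genes. None of the endothelial or cushion genes fell by limma or at an unadjusted p under 0.05. The 2 cushion genes were Lum, a matrix proteoglycan, at 1.27 (SE 0.29, adjusted p = 0.0061) and Prrx2 at 0.68 (adjusted p = 0.0237, lost without 5 of the 9 arrays). None of the 20 neural, 20 skeletal muscle and 19 liver genes was called by limma, with 1, 4 and 3 at an unadjusted p under 0.05. In skeletal muscle 1 gene was higher and 2 were lower without Nkx2-5+/- replicate 3, and 1 was higher without Nkx2-5+/- replicate 1 or Tbx5+/- replicate 1 or 3. Of 21 foregut and epithelial genes 1 rose, except without Nkx2-5+/- replicate 2, and 3 fell without Nkx2-5+/- replicate 3. The liver marker Afp varied within groups, with 6.36 to 9.87 in Tbx5+/- and 5.23 to 6.92 in Nkx2-5+/- (difference 1.86, SE 0.86, adjusted p = 0.176). Of the 19 liver genes, 5 had a mean signal below log2 5.

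**Figure D3:**
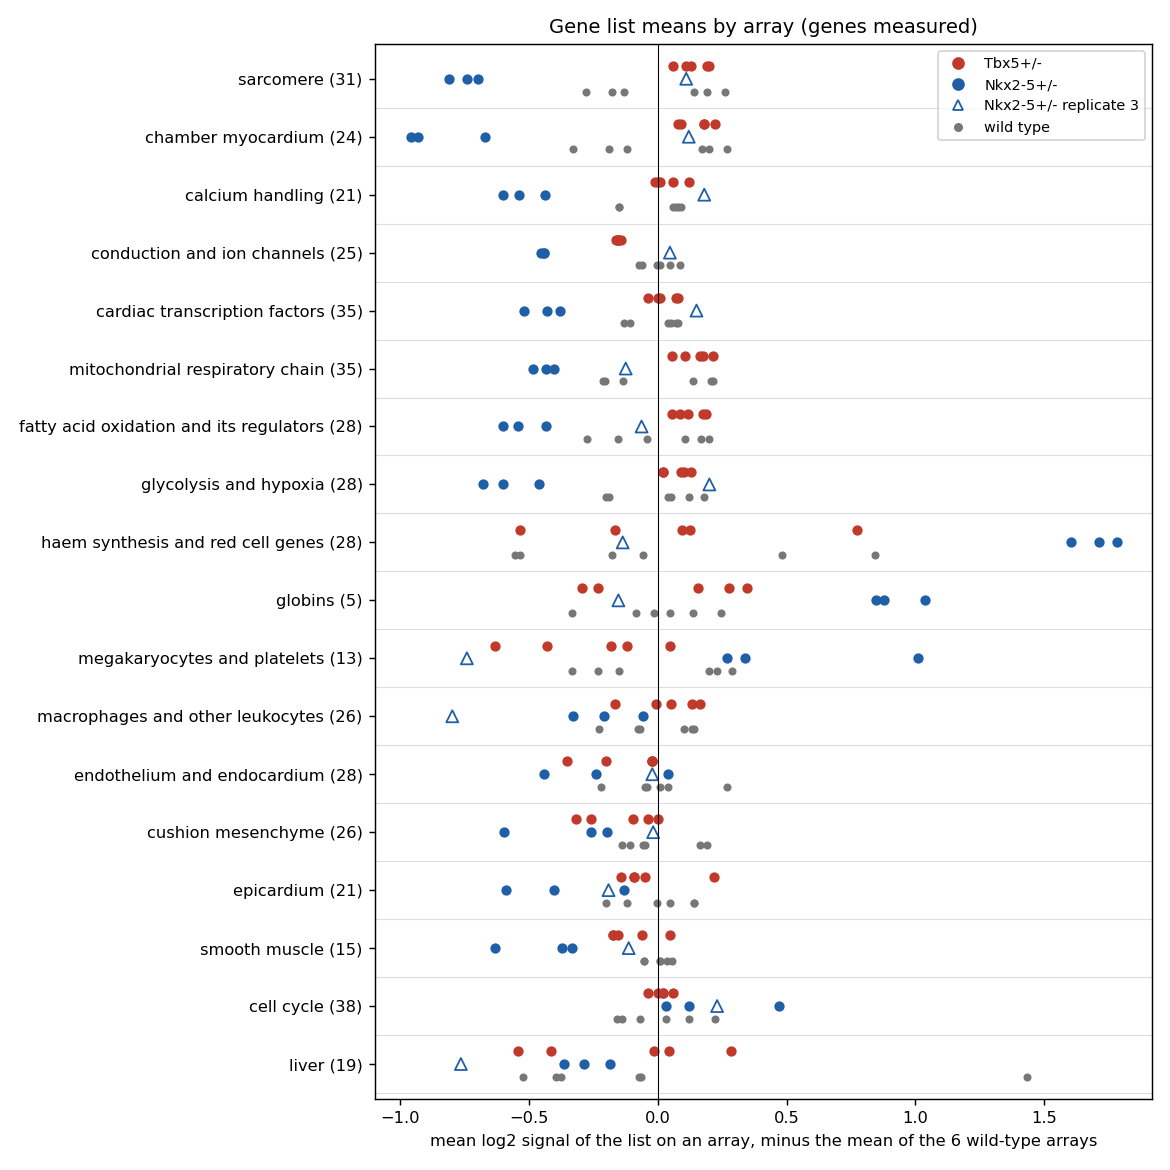
Mean log2 signal of each gene list on each array, minus the mean of the 6 wild-type arrays, with Tbx5+/- in red above Nkx2-5+/- in blue (triangle for replicate 3) and wild type in grey, and the number of genes in brackets. For the sarcomere and chamber lists 3 Nkx2-5+/- arrays lie left of all others, and for the red cell list and globins they lie right of all others, while the triangle lies among the Tbx5+/- or wild-type points in these 4 lists.

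How replicate 3 related to both groups was measured gene by gene. A position of 0 was set at the Tbx5+/- mean and 1 at the mean of the other 3 arrays labelled Nkx2-5+/-, over the 4550 genes called without that array, so that replicate 3 had no part in choosing them. Its median position was -0.02, and in 3801 genes (83.5%) it was nearer to the Tbx5+/- mean. The other 3 arrays did take part in choosing the genes, and no position is given for another array, so this share has no baseline. For the 3170 higher genes the median was -0.06 and for the 1380 lower genes 0.09. In 391 genes (8.59%) the position was 0.75 or more, that is, close to or past the other Nkx2-5+/- arrays. Among named genes these were Eef1a2 (1.09), Igfbp2 (1.05), Lyz1 (1.10), Lyz2 (0.86), Mlf1 (1.11), Casq2 (0.88), Myoz2 (0.82), Cox6a2 (0.81), Cox8b (0.75), Insr (1.76), Ptch1 (1.22) and Kif11 (0.80). Others were the cushion gene Lum (2.12), the epicardial genes Msln (2.24), Dpp4 (1.17) and Muc16 (0.80), the leukocyte gene Aif1 (1.84) and the keratin gene Krt7 (1.08). Actn2 (0.10), Smyd1 (0.05), Bmp7 (0.04), Mycn (0.03) and Pfkp (-0.02) stood near the Tbx5+/- mean. In 2355 of the 4550 genes (51.8%) replicate 3 was at or past that mean, and named genes past it included Acta2 (-0.35) and Atp2a2 (-1.7). The 523 stable genes had a median position of 0.41, but they had been called with replicate 3 in the fit, so this value is a description of that choice. Most named genes were likewise picked from calls made with replicate 3 in the fit.

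**Figure D4:**
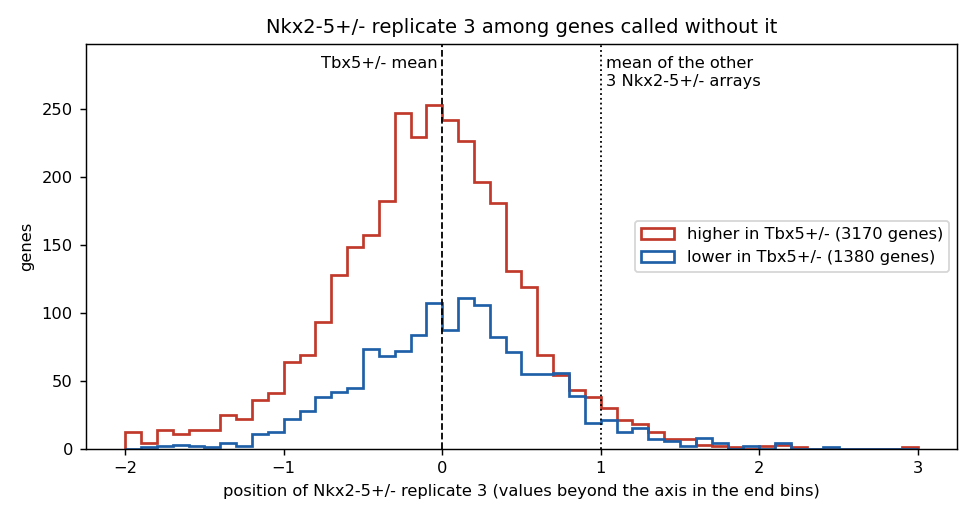
Position of Nkx2-5+/- replicate 3 between the Tbx5+/- mean (0, dashed) and the mean of the other 3 arrays labelled Nkx2-5+/- (1, dotted), for 3170 genes higher (red) and 1380 genes lower (blue) in Tbx5+/- in the fit without it. Both distributions peak near 0, and 391 of the 4550 genes have a position of 0.75 or more.

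Genes next to the deleted loci were counted as well. Of the 50 measured genes nearest to Tbx5, 25 on each side by order in the reference gene table, 11 were called (22%, against 11.2% over all genes), 6 higher and 5 lower. Of the 50 nearest to Nkx2-5, 11 were called (22%), also 6 higher and 5 lower. Of those nearest to Smarca4, which is deleted in neither group, 6 were called (12%). Next to Tbx5, the kinase genes Cit and Taok3 fell by 1.10 and 0.81 (SE 0.14 for Taok3, adjusted p = 0.000958) and were stable. Hectd4 fell by 0.95 (adjusted p = 0.00656) and Med13l by 0.65 (adjusted p = 0.00761, lost without Nkx2-5+/- replicate 2), and the small heat shock gene Hspb8 rose by 0.75 (adjusted p = 0.0106, lost without Nkx2-5+/- replicate 2 or 4). Next to Nkx2-5, the peroxisomal reductase gene Decr2 rose by 0.53 (adjusted p = 0.00718), the apoptosis gene Bak1 by 0.42 (adjusted p = 0.00565) and Ergic1 by 0.34 (adjusted p = 0.0203, lost without Nkx2-5+/- replicate 2 or 4). The phosphatase gene Dusp1, an immediate early gene, fell by 0.61 (adjusted p = 0.0311, lost without 7 of the 9 arrays).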

How the data were processed

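Total RNA of E11.5 hearts was hybridised to Affymetrix arrays, 1 per sample. The deposited values are log2 signals for 28815 probe sets on 27 arrays. The submitters' processing notes name RMA and Affymetrix Power Tools, without versions, as what the authors used. Values were used as deposited, with array medians of 6.181 to 6.328, and precision is limited by the number of arrays. Probe sets with 1 symbol in the platform annotation (21780, against 1605 with several and 5430 not listed) were kept, and the probe set with the highest mean was taken for the 998 genes with several, giving 19935 genes, of which 19853 were found in the GRCm38.p6 gene table, which was used for names and gene order. The labels name no build, and the only coordinates given belong to the RefSeq promoters.

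Arrays were grouped by the labelled genotype. Differences came from limma 3.58.1 (R 4.3.3), fitting group means to all 27 arrays together with no trend in the variance prior (21 residual and 6.71 prior degrees of freedom). Tests were two-sided with Benjamini-Hochberg adjustment over all genes, and every adjusted p of a gene comes from limma. On simulated data with 19935 genes, this comparison called 55.2%, 95.5% and 100% of genes changed by log2 0.5, 1 and 2, and 34.3%, 95.5% and 98.5% with the 9 arrays alone. The simulated noise was independent between genes and arrays, with no outlying array and no shared shift of red cell genes. These rates therefore do not describe the real arrays, which had both.

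The comparison, the gene lists, the naming rule and the alternatives were chosen with earlier results of these data known. Named were the targeted genes, the 15 called genes that rose most and the 15 that fell most, up to 12 stable genes in each direction, up to 4 called members of each list (or 2 uncalled where none passed) and called neighbours of the loci. Clone, predicted and receptor family names were not named, and some allowed genes were left out. Nppa, Gja5, Tnnt2, Myl7, Atp2a2, Ryr2, Gata4, Tbx20, Hcn4 and Ppargc1a were added after their values were seen. Replicate numbers in the labels were not used as pairs in the main fit. Figures used matplotlib 3.10.9 in Python 3.11.15.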

Additional observations from a re-analysis of the deposited data

Results flagged for a closer look

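Single arrays were compared with the rest of their own group by Dixon's ratio for all named genes and list means. Of 306 values tested, 30 passed its 95% critical value, and chance alone flags about 1 in 20 groups. Of the 30, 20 were Nkx2-5+/- replicate 3 and 10 were other arrays. No explanation was tested for any of them.

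Nkx2-5+/- replicate 3 was the highest array of its group in Nkx2-5 (9.40), Lrrc10 (7.27), Pygm (10.40), Pfkp (10.39), Hand2 (8.18), Krt18 (8.74) and Acta2 (13.27). It was also highest in the list means of the sarcomere (10.81), conduction and ion channels (7.39) and the BAF complex (8.68). It was the lowest array of its group in Acp5 (9.55), Slc30a10 (8.25) and Tspan33 (8.65), in the globin genes Hbb-bh2 (6.45) and Hbq1b (6.45), in the liver marker Afp (5.23), in Mki67 (10.61) and Btg2 (7.25), and in the list means of haem synthesis and red cell genes (8.89) and of globins (10.25).

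Tbx5+/- replicate 3 was lowest of its group in Tbx5 (8.51) and highest in Gja5 (9.74) and in the epicardium list mean (8.85). The 4 other Tbx5+/- arrays lay between 8.80 and 8.90 in Tbx5 and between 8.95 and 9.09 in Gja5. The other single values were Mlf1 (6.77) and Actg2 (7.09), each highest in Nkx2-5+/- replicate 1, and the Igf signalling list mean, lowest in Nkx2-5+/- replicate 2 (8.35). Among Tbx5+/- arrays they were Fhl2, highest in replicate 2 (9.74), Des, highest in replicate 1 (10.80), Myl7, lowest in replicate 1 (12.55), and Hspb8, lowest in replicate 5 (9.12).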

How the results depend on the processing

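The number of called genes (2225, with 1538 higher and 687 lower) depended most on the red cell mean as a covariate, which gave 109 calls (91 and 18), and on the arrays used. The 9 arrays alone gave 985 (614 and 371), array weights 4378 (3029 and 1349, with a weight of 0.179 for Nkx2-5+/- replicate 3 against 0.679 to 1.73 for the others) and leaving out both Nkx2-5+/- replicate 3 and Tbx5+/-;Brg1+/- replicate 3, whose Smarca4 signal went against its label, 4556 (3184 and 1372). With each of the 9 arrays left out in turn the count ran between 682 and 4550, with 521 to 3170 higher and 161 to 1380 lower. Chosen after seeing the data were the 9 arrays without Nkx2-5+/- replicate 3, which gave 4426 (2951 and 1475), and the red cell covariate without that array, which gave 1372 (1169 and 203) and turned the sign of 20 called genes. A further quantile normalization, equal array medians, genes of low mean signal left out, a trended robust prior, all probe sets, the mean of probe sets and the Y-linked mean as a covariate kept the counts within 1.5 times.

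Of the 111 named genes with a call, 81 kept it on the 9 arrays alone, 65 to 106 with 1 of the 9 arrays left out, and 26 with the red cell covariate. Signs turned with the red cell covariate for Hbq1b (0.05), Myl7 (-0.18), Atp2a2 (-0.07), Ryr2 (-0.12) and Tbx20 (-0.15). They turned with the covariate and without Nkx2-5+/- replicate 3 for Sfrp2 (-0.11), Pklr (0.16), Mt2 (0.27) and Myl7 (-0.06), and without Nkx2-5+/- replicate 4 for Atp2a2 (-0.01, with 0.32 without Nkx2-5+/- replicate 3 as the highest). The cause was not tested. The covariate list holds Pklr and other red cell genes, whose own values under it are shaped by that construction.

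The replicate number as a block gave 1895 calls (1349 and 546), with 99 of the 111 named calls kept. Deviations of same-numbered arrays correlated at 0.34, 0.00, 0.03 and 0.10 for numbers 1 to 4, and arrays 1 and 4 matched their own number best. With so few numbers this does not decide whether they pair the samples. Of the 4576 genes with a mean below log2 5 in both groups, 39 were called. Few calls thus rested on low signal, and genes of low signal were rarely called.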
